A study of Mus musculus with 38 samples.

Results

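The genomic sites recovered with the c-Fos antibody sc52 were compared between silenced and KCl-depolarised mouse cortical neurons. The comparison used the 2 cultures that carried no shRNA and were assayed with this antibody in both conditions, biological samples 3 and 4, here called culture 3 and culture 4. The 4 peak lists held 34736 peaks, of 233260 peaks in the 22 lists of AP-1 proteins in the series, and came from 4 of its 38 samples. Each KCl list was compared with the unstimulated list of its own culture. A KCl peak that shared no base with an unstimulated peak was called gained, an unstimulated peak that shared no base with a KCl peak was called lost, and peaks that shared at least 1 bp were called kept.

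The neurons were dissociated from the cortices of C57BL/6 mouse embryos at embryonic day 16.5, so all groups have the same genotype and strain. From day 6 in vitro all dishes were silenced overnight with 1 µM TTX, a blocker of voltage-gated sodium channels, and 100 µM DL-AP5, a blocker of NMDA receptors. On day 7 the unstimulated dishes stayed silenced, and the KCl dishes were depolarised with KCl for 2 hours, so the unstimulated group is a silenced and not a resting state. Whether a culture pooled several embryos or litters, and how pure in neurons it was, is not stated in the labels, and peak lists hold no expression from which markers could be checked. H3K27ac was mapped in other cultures, biological samples 1 and 2, whose libraries were merged into 1 list per condition. The replicate error of the H3K27ac context of an sc52 peak can therefore not be estimated, and the context was not measured in the cultures that gave the peaks.

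c-Fos is the product of an immediate early gene, transcribed within minutes of neuronal depolarisation and low in silent neurons. It binds DNA as a dimer with a Jun protein such as JunB, and the dimer, called AP-1, recognises a short palindromic element found mostly at enhancers away from promoters. FosB is a close relative of c-Fos that forms dimers of the same kind. H3K27ac, acetylation of lysine 27 of histone H3, marks active promoters and enhancers.

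The KCl lists were longer than the unstimulated lists in both cultures. Culture 3 gave 3669 unstimulated and 22368 KCl peaks, and culture 4 gave 1891 unstimulated and 6808 KCl peaks. The KCl and unstimulated lists therefore did not overlap in length, but the KCl list of culture 4 was much shorter than that of culture 3. The difference was 2.61 on the log2 scale in culture 3 and 1.85 in culture 4, with a mean of 2.23 ± 0.54 (SD, n = 2 cultures). The exact two-sided permutation test over the libraries gave p = 0.33, the smallest p that 2 against 2 libraries allow. With the culture as a block, the paired difference was the same 2.23 and the exact sign-flip test over the pairs gave p = 0.5, again the smallest possible. The lists hold no read counts, so the sequencing depth of each library is unknown, and its part in the length of a list was not tested.

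**Figure D1:**
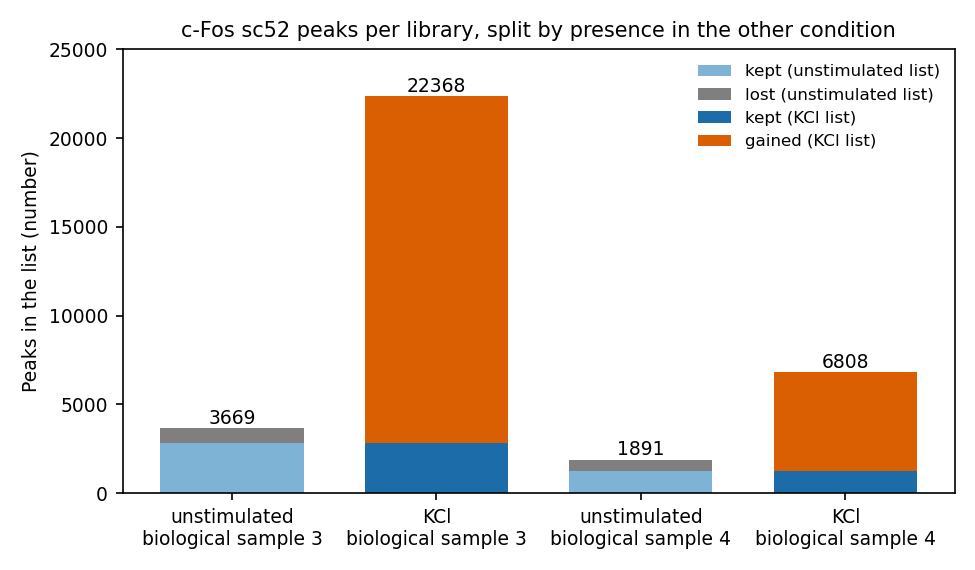
Number of c-Fos sc52 peaks per list (vertical axis, peaks) for the unstimulated and KCl library of each culture, divided into kept, lost and gained peaks. The KCl bars reach 22368 and 6808 peaks, and most of each is gained, whereas most of each unstimulated bar is kept.

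With the full lists, most silenced-state peaks were found again after KCl. In culture 3, 2815 of 3669 unstimulated peaks were kept, or 76.7% (95% Wilson interval 75.3 to 78.1). In culture 4, 1270 of 1891 were kept, or 67.2% (65.0 to 69.2). Lost peaks made up the other 854 peaks in culture 3, a background rate of 23.3%, and the other 621 peaks in culture 4, a rate of 32.8%. The mean kept share was 71.9% ± 6.8 (SD, n = 2 cultures). Wilson intervals here cover counting error alone, and peaks of 1 library are not replicates of a condition.

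The kept share depended on the length of the KCl list. When each KCl list was cut to its best-scoring peaks, as many as in the unstimulated list of the culture, 35.6% of unstimulated peaks were kept in culture 3 and 38.97% in culture 4. Against the KCl list of the other culture, 38.7% of the unstimulated peaks of culture 3 and 84.3% of those of culture 4 found a partner. The longer KCl list of culture 3 thus held more partners for either culture.

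Gained peaks formed most of each KCl list. They numbered 19549 in culture 3, which is 87.4% of the list, and 5538 in culture 4, which is 81.3%. The KCl peaks that overlapped an unstimulated peak numbered 2819 and 1270. With KCl lists cut to the length of the unstimulated lists, the gained share was 62.9% on average over the cultures.

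Few gained peaks lay close beside a silenced-state peak. In culture 3, 225 gained peaks (1.15%) lay within 1 kb of an unstimulated peak without touching it, and in culture 4 there were 11 (0.199%). Lost peaks lay within 1 kb of a KCl peak in 59 cases in culture 3 (6.92%) and in 7 cases in culture 4 (1.13%). Kept peaks overlap by definition, so the distance between their centres is limited by construction and is no measure of a shift. Over the 2757 peak pairs of culture 3 that overlapped one to one, the centres differed by a median of 61 bp, and over the 1267 pairs of culture 4 by 58 bp. The KCl member of the pair was the wider one in 67.0% of pairs in culture 3 and in 43.3% in culture 4, so width had no common direction.

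Kept peaks carried higher scores than gained or lost peaks of the same list. The score is the peak caller's measure of confidence, and its lowest value of 50 stands for a calling threshold of 1e-05. The scores are the authors' own and rank peaks only within a list. In the KCl list of culture 3 the median score was 167 for kept and 81.9 for gained peaks, and in culture 4 it was 123 and 70.8. As percentiles of their own list, the median kept peak stood at 81.1 and 79.0 and the median gained peak at 45.9 and 44.5 in cultures 3 and 4. The mean difference was 34.8 ± 0.5 percentage points (SD, n = 2 cultures). Within the better-scoring part of each KCl list, above the 50th percentile, it was 15.8 points, an alternative that was chosen after the data were seen.

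Gained peaks nevertheless reached the top of the score range. The highest gained score was 3211 in culture 3 and 3100 in culture 4, against 3199 and 3100 for kept KCl peaks. Scores of 3100 or more were held by 9 KCl peaks of culture 3 and 2 of culture 4. The exact value 3100 recurred in all 4 lists, so it may be a ceiling, and peaks that share it are not ranked by score. Each list was divided by score into 5 groups of about equal size. The gained share was 96.4% in the lowest score group of the KCl list of culture 3 and 67.7% in the highest group. In culture 4 these shares were 92.1% and 54.3%. Peaks with no counterpart in the silenced list were thus the larger part even of the best-scoring group in both cultures.

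Lost peaks sat near the calling threshold. Their median score was 61.04 in culture 3 and 65.0 in culture 4, at the percentiles 23.3 and 23.5 of their lists. Scores under 60 were held by 46.7% of lost peaks in culture 3 and by 37.4% in culture 4, against 13.6% and 6.77% of kept unstimulated peaks. From the lowest to the highest score group of the unstimulated list of culture 3, the lost share was 50.3%, 36.8%, 21.1%, 7.36% and 0.817%. In culture 4 it was 70.9%, 54.0%, 33.6%, 5.82% and 0%, the last being 0 of 379 peaks. The highest score of a lost peak was 375 in culture 3 and 208 in culture 4. Whether a lost peak stayed just under the threshold after KCl was not tested, since the lists hold no signal outside peaks.

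**Figure D2:**
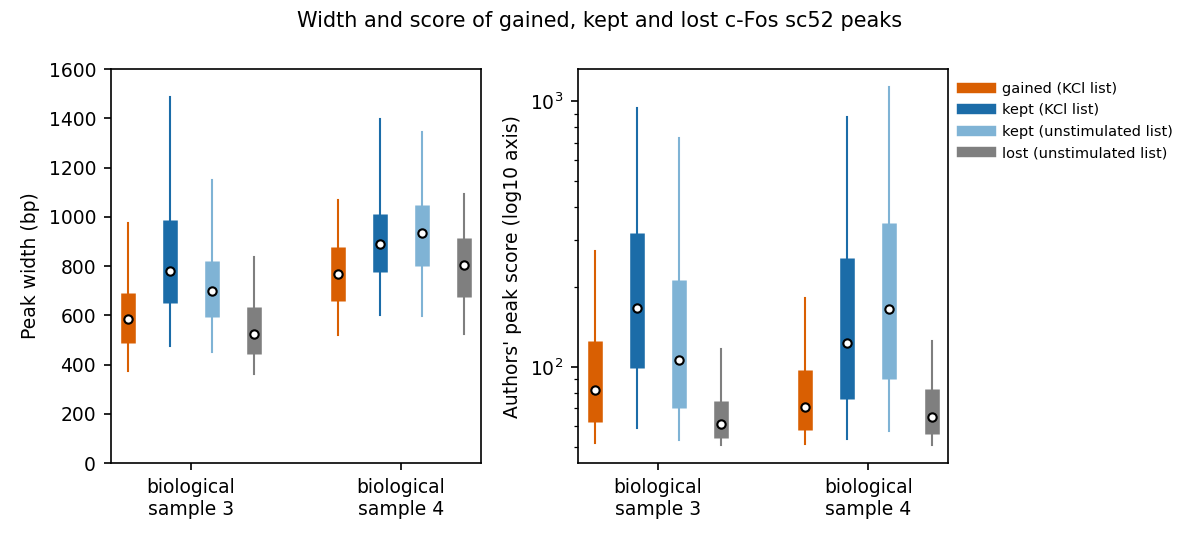
Width in bp (left) and the authors' score on a log10 axis (right) of gained, kept and lost c-Fos sc52 peaks in biological samples 3 and 4, with points for the median, boxes from percentile 25 to 75 and lines from percentile 5 to 95. The median score is higher for kept than for gained peaks of the KCl lists, and lower for lost peaks, at 61.04 and 65.0, than for kept peaks of the unstimulated lists.

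Gained peaks were narrower than kept peaks. The median gained width was 585 bp in culture 3 and 768 bp in culture 4, against 782 and 891 bp for kept KCl peaks. The mean difference of 160 ± 52 bp (SD, n = 2 cultures) had the same sign in both cultures. In culture 4 it was 123 bp, 66 bp with scores of at least 100 and 53 bp with KCl lists of equal length. Lost peaks had medians of 523 and 803 bp, and kept unstimulated peaks 698 and 935.5 bp. Since a wider peak is more easily overlapped and width went up with score, the widths were not tested. Culture 4 had wider peaks throughout, with list medians of 790 bp after KCl and 888 bp unstimulated, against 603 and 660 bp in culture 3. The KCl lists covered 14.4 Mb in culture 3 and 5.51 Mb in culture 4, and the unstimulated lists 2.57 and 1.72 Mb.

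The H3K27ac context separated the classes. Each peak was assigned to a distal H3K27ac peak, a non-distal H3K27ac peak or none, using the H3K27ac list of its own condition. Distal peaks are those in the authors' distal list, and non-distal peaks those in their genome-wide list alone. The labels do not state the distance rule behind the distal list. Non-distal peaks are not called promoters here, since no annotation of this genome build was used.

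Gained peaks lay mostly outside H3K27ac. In culture 3, 57.2% of gained peaks touched no H3K27ac peak, 21.3% lay in distal and 21.5% in non-distal H3K27ac. In culture 4 the shares were 63.3%, 28.9% and 7.80%. The non-distal share of gained peaks was therefore the one that differed most between the cultures.

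Kept peaks lay mostly in non-distal H3K27ac. Of kept KCl peaks, 72.9% in culture 3 and 74.6% in culture 4 were non-distal, 10.5% and 7.01% were distal, and 16.6% and 18.3% lay outside H3K27ac. Gained minus kept, the non-distal share differed by -59.1 ± 10.9 percentage points (SD, n = 2 cultures) and the distal share by 16.4 ± 7.9 points. The distal difference was 10.8 points in culture 3 and 21.9 in culture 4, so the cultures shared its sign and not its size. It was 27.4 points with KCl lists cut to the unstimulated length, and 8.76 points with the H3K27ac list of the silenced condition in place of the KCl list. A pair of cultures cannot reach p under 0.5 in a sign-flip test, so these differences carry no test.

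Lost peaks were more often outside H3K27ac than kept unstimulated peaks. Outside were 52.3% of lost peaks in culture 3 and 38.3% in culture 4, against 17.8% and 19.2% of kept unstimulated peaks. In non-distal H3K27ac lay 36.5% and 51.7% of lost peaks, against 71.9% and 73.4% of kept ones. The difference, kept minus lost, was 28.5 ± 9.7 points (SD, n = 2 cultures), and 17.2 points with KCl lists of equal length. With scores of at least 100 it was 36.0 points in culture 3 but 5.64 points in culture 4, and with the partner list of the other culture 13.5 and 52.5 points, so its size was not stable within a culture. Distal shares hardly separated these classes, with 11.1% and 9.98% of lost and 10.2% and 7.40% of kept peaks.

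**Figure D3:**
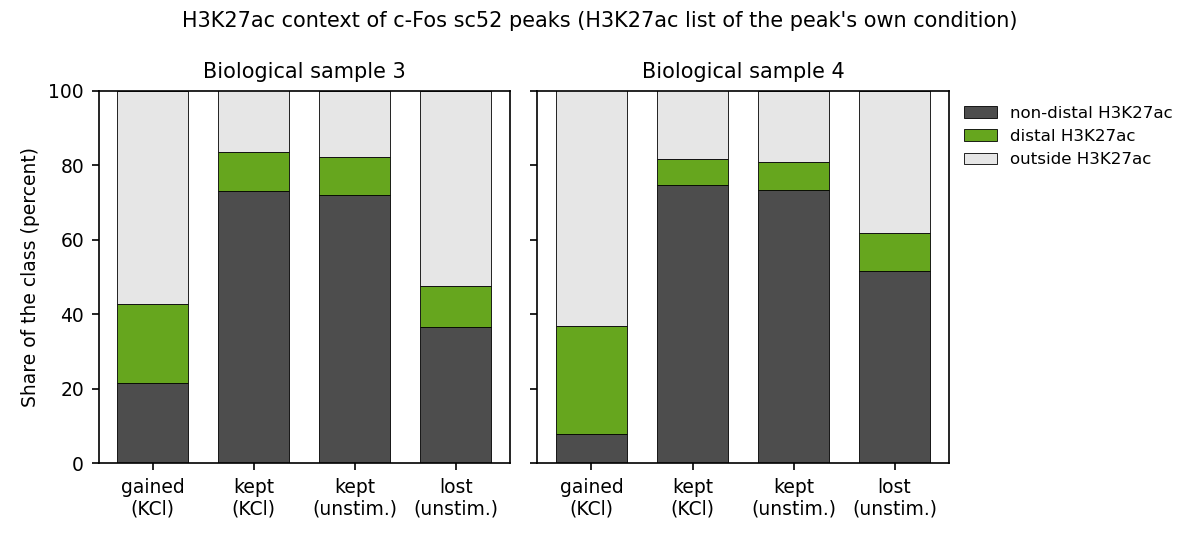
Share of gained, kept and lost c-Fos sc52 peaks (percent of the class) in distal H3K27ac, non-distal H3K27ac and outside H3K27ac, in each culture. Kept peaks are over 70% non-distal in both cultures, and gained peaks are over 57% outside H3K27ac.

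Seen from the context, silenced-state sc52 peaks were concentrated in non-distal H3K27ac. Of the KCl peaks outside H3K27ac, 96.0% were gained in culture 3 and 93.8% in culture 4, and in distal H3K27ac 93.4% and 94.7% were gained. In non-distal H3K27ac the gained share was 67.2% in culture 3 and 31.3% in culture 4. Distal gained peaks had the higher scores among gained peaks, with median percentiles of 57.0 and 52.3, against 41.8 and 41.4 for gained peaks outside H3K27ac.

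Most gained distal peaks lay where the silenced neurons already carried H3K27ac. Of 4158 gained distal peaks in culture 3, 2776 (66.8%) also touched an unstimulated H3K27ac peak, and of 1603 in culture 4, 905 did (56.5%). Kept distal peaks did so more often, at 88.2% and 89.9%. Of all gained peaks, 8.03% in culture 3 and 13.3% in culture 4 touched H3K27ac found after KCl alone. Neither H3K27ac list was touched by 54.8% and 60.9%.

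Gained sc52 peaks were also unevenly shared out among H3K27ac peaks. Of 4824 distal H3K27ac peaks present after KCl alone, 25.1% held a gained sc52 peak of culture 3 and 13.2% one of culture 4. Of 13732 distal H3K27ac peaks present in both conditions, 19.3% and 6.83% did. Of 5872 distal H3K27ac peaks found in silenced neurons alone, 6.91% and 2.06% did. The order was the same in both cultures, although the H3K27ac peaks shared by both conditions were the widest, with a median of 2393 bp against 1837 bp after KCl alone. Kept sc52 peaks were scarce in distal H3K27ac found after KCl alone, at 0.601% and 0.145%. In the 10357 non-distal H3K27ac peaks present in both conditions, a kept peak was found in 19.0% and 8.85%.

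Positions within the acetylated regions were measured from their centres. The gained peaks whose centre lay in distal H3K27ac were a median of 261.5 bp from its centre in culture 3 and 249.5 bp in culture 4, in regions with median widths of 2581 and 2584 bp. For kept KCl peaks the medians were 232 and 214.5 bp. In non-distal H3K27ac the median distance was 378.5 and 596.5 bp for gained peaks, and 306 and 327 bp for kept peaks.

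The authors' deposited list of distal sites with the coactivator CBP and the enhancer mark H3K4me1 gave a view of enhancers. Of its 11830 sites, 34.2% lay in a gained peak of culture 3 and 14.0% in one of culture 4. Among its subset with increasing H3K27ac, 782 of 1468 sites (53.3%) lay in gained peaks of culture 3 and 407 (27.7%) in those of culture 4. Sites with constant H3K27ac were covered at 26.8% and 9.88%, those with decreasing H3K27ac at 19.0% and 6.91%, and those with no H3K27ac at 33.7% and 12.2%. In both cultures the increasing subset was thus covered most and the decreasing subset least.

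Kept peaks covered few of these enhancer sites. Of all 11830 sites, 173 (1.46%) lay in a kept KCl peak of culture 3 and 50 (0.423%) in one of culture 4. At increasing sites, 9 of 1468 (0.613%) lay in a kept KCl peak of culture 3 and 0 of 1468 in culture 4, which allows a share of up to 0.204%. Kept peaks covered 0.5% and 0.125% of the constant sites, 1.76% and 0.949% of the decreasing sites, and 3.23% and 1.11% of the sites with no H3K27ac. Read the other way, 20.5% and 29.3% of gained peaks covered a CBP and H3K4me1 site, against 6.14% and 3.86% of kept and 9.02% and 9.82% of lost peaks.

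The cultures were then set against each other. A gained peak of culture 4 lay under a culture 3 peak found after KCl alone in 75.5% of cases. In the other direction the share was 21.6%, and 15165 gained peaks of culture 3 met no sc52 peak of culture 4. Kept KCl peaks of culture 4 overlapped peaks of both culture 3 lists in 90.6% of cases, and those of culture 3 both culture 4 lists in 41.1%. Lost peaks were not shared to that degree. Of the lost peaks of culture 3, 87.4% met no peak of culture 4, and of the lost peaks of culture 4, 47.5% were present in both lists of culture 3.

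Merging the peaks of the 4 lists gave 24438 regions. Of these, 4170 (17.1%) were gained in both cultures, 1153 (4.72%) were in all 4 lists, and 80 (0.327%) were lost in both cultures. A single KCl list alone supplied 16277 regions (66.6%), 15165 of them from culture 3 and 1112 from culture 4. The other patterns held between 9 and 1112 regions each. These shares are the background for what follows, since the classes were made from the same lists.

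Regions gained in both cultures had a low non-distal share. In this class 61.1% lay outside H3K27ac, 32.3% in distal and 6.57% in non-distal H3K27ac. Regions found in a single KCl list were 23.7% non-distal, and those in all 4 lists 79.1%. The non-distal gained peaks of culture 3 were seldom repeated in the shorter KCl list of culture 4. Of them, 317 of 4202 (7.54%) overlapped a KCl peak of culture 4, against 1372 of 4158 distal and 2599 of 11189 unacetylated gained peaks. Of the 80 regions lost in both cultures, 45 were outside H3K27ac, 10 in distal and 25 in non-distal H3K27ac.

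A different c-Fos antibody, sc7202, was used on the same cultures and played no part in the classes. Its KCl list held 76.1% of the gained sc52 peaks of culture 3 and 84.5% of those of culture 4. In non-distal H3K27ac these shares were 52.7% and 65.5%. Of kept sc52 peaks it held 53.6% and 18.7%, and of lost peaks 14.1% and 10.5%. The gained minus kept difference was 22.5 points in culture 3 and 65.9 in culture 4, a mean of 44.2 ± 30.7 (SD, n = 2 cultures). Its sign was shared and its size was not. The unstimulated sc7202 list held few sc52 peaks of any class, with 1.22% and 0.506% of gained and 22.7% and 5.04% of kept KCl peaks. Most silenced-state sc52 peaks were therefore not seen with the other antibody in the same silenced culture. The sc7202 lists were 1770 and 557 peaks long in the unstimulated condition, and the part of that length in the low shares was not tested.

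The other AP-1 proteins divided the classes unevenly. JunB, a dimer partner of c-Fos, was assayed in culture 4, where its KCl list held 87.4% of gained, 17.8% of kept and 23.2% of lost sc52 peaks. The same JunB list held 50.5% of gained and 17.8% of kept sc52 peaks of culture 3. FosB lists differed between the cultures. After KCl, the FosB list of culture 3 held 32.5% of its gained and 53.0% of its kept sc52 peaks, and that of culture 4 held 39.04% of gained and 13.1% of kept peaks. Outside H3K27ac, kept peaks led in both cultures, with 47.9% against 24.4% of gained peaks in culture 3 and 55.4% against 37.2% in culture 4. This lead was not particular to KCl. The unstimulated FosB lists held 28.6% of these kept and 0.331% of these gained peaks in culture 3, and 53.6% and 3.48% in culture 4. The JunB share also varied with context. In culture 4 the KCl JunB list held 67.4% of kept peaks outside H3K27ac and 4.75% of non-distal ones.

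**Figure D4:**
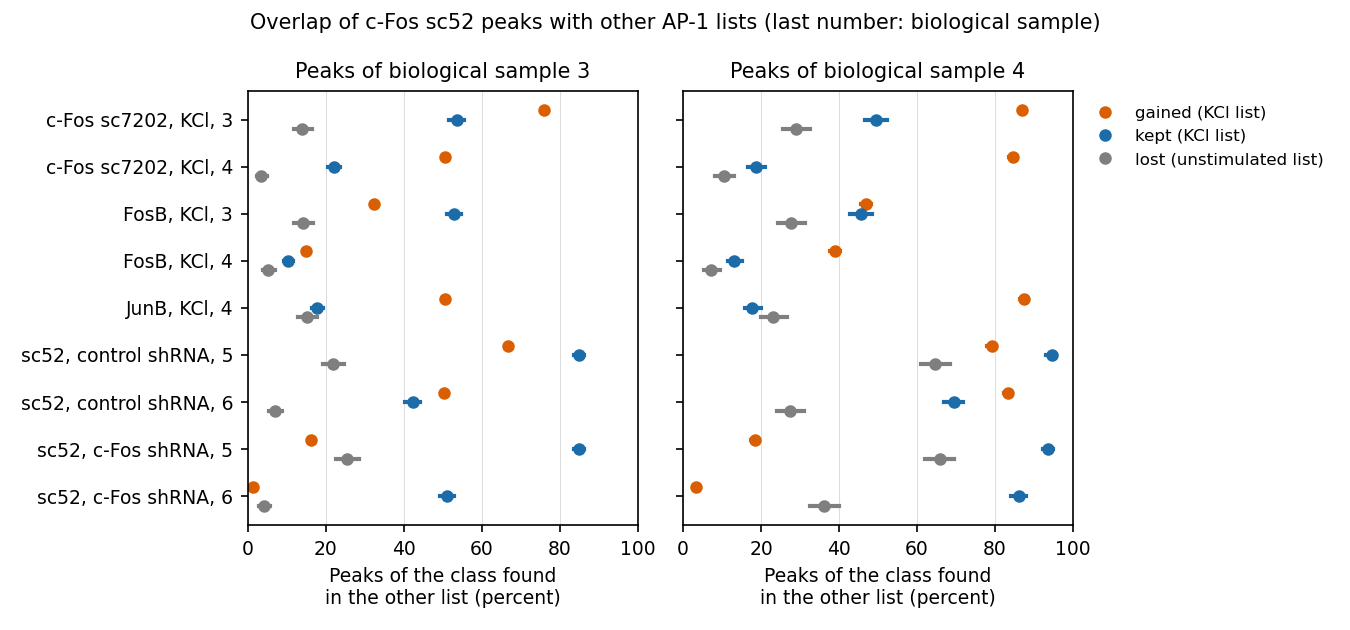
Share of gained, kept and lost c-Fos sc52 peaks (percent of the class) found in other peak lists of the series, 1 panel per culture, with lines for the 95% Wilson interval. Gained peaks lead in the sc7202 and JunB lists made after KCl, and kept peaks lead in the c-Fos shRNA lists in both panels.

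Lists made with sc52 from KCl-treated, shRNA-infected cultures gave a further readout. Both biological sample 5 and biological sample 6 supplied dishes with a control shRNA and dishes with an shRNA against c-Fos. Neither culture was used to define the classes. No measure of how far the c-Fos protein fell in them was used here. The control shRNA list of sample 5 held 66.8% and 79.1% of the gained peaks of cultures 3 and 4, and that of sample 6 held 50.3% and 83.3%. Over all KCl sc52 peaks these lists held 69.1% (sample 5) and 49.3% (sample 6) for culture 3, and 82.0% and 80.7% for culture 4. Kept KCl peaks were held at 85.1% and 94.6% in sample 5, and at 42.3% and 69.4% in sample 6. Since gained peaks formed most of each KCl list, their shares lie near those of the whole lists by construction. Against kept peaks, the gained shares were lower in sample 5 and higher in sample 6, for both cultures. Of the non-distal gained peaks of culture 3, the control shRNA lists held 58.8% in sample 5 and 13.6% in sample 6.

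Gained peaks were listed less often than kept peaks under c-Fos shRNA. The c-Fos shRNA lists were short, with 7808 peaks in sample 5 and 1793 in sample 6, against 23578 and 19131 with control shRNA. A list shorter than a class limits the share of the class that it can hold. The gained peaks numbered 19549 in culture 3 and 5538 in culture 4. The limit thus holds for the sample 6 list in both cultures, and for the sample 5 list in culture 3 alone. Over all KCl sc52 peaks the c-Fos shRNA lists held 25.02% (sample 5) and 7.56% (sample 6) for culture 3, and 32.6% and 18.7% for culture 4. The c-Fos shRNA list of sample 5 held 16.4% of gained peaks of culture 3 and 18.5% of those of culture 4, and that of sample 6 held 1.28% and 3.25%. Kept peaks were held at 85.0% and 93.7% in sample 5, and at 51.2% and 86.1% in sample 6. The gained minus kept difference, averaged over both shRNA samples, was -59.2 points in culture 3 and -79.0 in culture 4, a mean of -69.1 ± 14.0 (SD, n = 2 cultures). The part of list length in the low shares of gained peaks was not tested. Lost peaks were held at 25.5% and 65.9% in sample 5, and at 4.10% and 36.2% in sample 6. The control shRNA lists, made after KCl as well, held 21.9% and 64.7% of lost peaks in sample 5, and 7.03% and 27.4% in sample 6. Some peaks lost in cultures 3 and 4 were therefore listed after KCl in other cultures.

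The same held among peaks that the control shRNA list of the sample also contained. Of such gained peaks of culture 3, 18.9% remained in the c-Fos shRNA list of sample 5 and 1.34% in that of sample 6. Of such kept peaks, 91.6% and 73.8% remained. For culture 4 the gained peaks gave 22.6% and 2.52%, and the kept peaks 97.8% and 88.0%. The share differed by context among gained peaks. In sample 5, 5.92% of those of culture 3 outside H3K27ac remained, 20.4% of the distal and 56.8% of the non-distal ones. In sample 6 the same order held at lower values, 0.629%, 1.27% and 9.95%. For culture 4 the values in this order were 12.1%, 28.3% and 70.2% in sample 5, and 1.36%, 1.99% and 18.3% in sample 6. The gained non-distal peaks were thus the gained peaks most often still listed under c-Fos shRNA.

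In all, regions gained in both cultures were 92.1% present in both KCl sc7202 lists, 93.4% in the JunB list, 32.5% in both FosB lists and 85.3% in both control shRNA lists. In the c-Fos shRNA lists of samples 5 and 6, 19.2% and 2.01% of them appeared. Regions in all 4 sc52 lists were 16.1% present in both KCl sc7202 lists, 14.6% in the JunB list and 69.8% in both control shRNA lists. They appeared in the c-Fos shRNA lists at 98.0% and 90.5%. The c-Fos shRNA shares count each list alone, whereas the control shRNA shares require both lists, so they are unlike measures. The authors' deposited list of 12594 combined c-Fos sites comes from the same series, and the labels do not state its exact rule. It may have been made from the lists that gave the classes, so it is not taken as an independent readout. It had a site in 3461 regions gained in both cultures (83.0%), in 21 regions kept in both (1.82%) and in 0 of the 80 lost in both.

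Gained and kept peaks also differed within the score groups of the KCl lists. In the highest group, the sc7202 list held 97.7% of gained and 66.2% of kept peaks in culture 3, and 98.8% and 19.9% in culture 4. In the lowest group the shares were 53.2% and 29.4% in culture 3, and 70.9% and 15.0% in culture 4. The non-distal share in the highest group was 17.1% of gained and 75.5% of kept peaks in culture 3, and 5% and 79.7% in culture 4. The mean share under c-Fos shRNA in that group was 17.6% against 83.3% in culture 3, and 22.5% against 97.2% in culture 4.

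**Figure D5:**
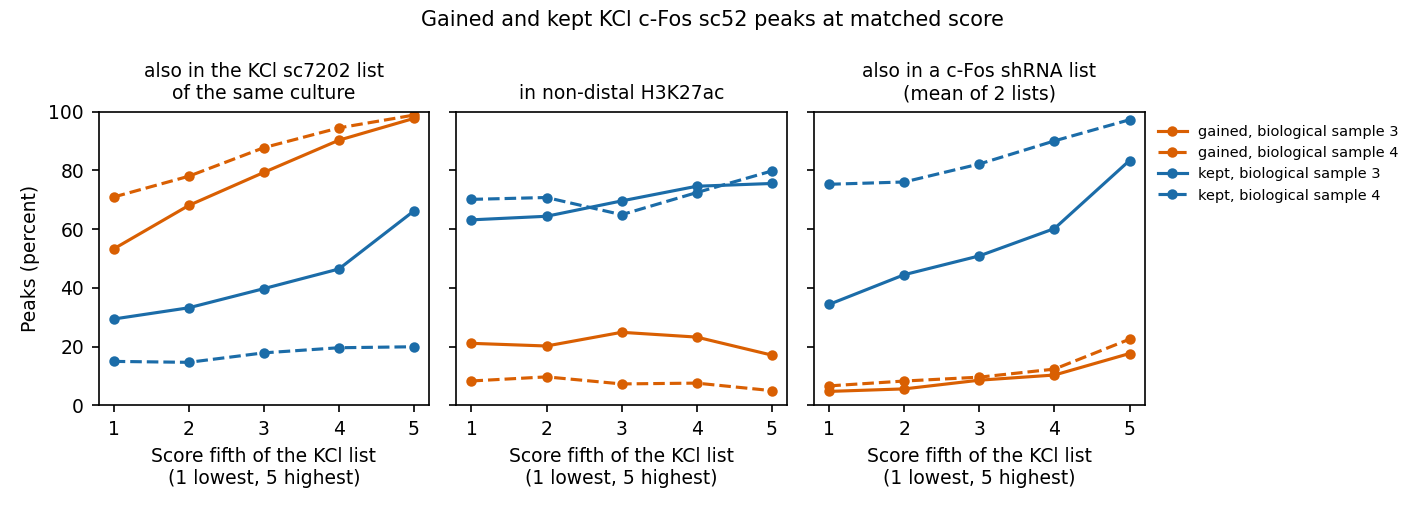
Gained and kept KCl sc52 peaks in the 5 score groups of their list (horizontal axis, 1 lowest and 5 highest), as percent of peaks that are also in the sc7202 list (left), in non-distal H3K27ac (middle) or in a c-Fos shRNA list (right). In each panel the gained and kept curves of a culture stay apart from the lowest to the highest group.

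Single regions of each class are given, with coordinates on mm9 as in the deposited lists. They are the best-ranked regions of each class and context, so their high scores follow from the choice. Their H3K27ac, their presence in other lists and the order of their scores between contexts need not be typical of the class. The contexts also differ in size. Regions gained in both cultures were 2548 outside H3K27ac, 1348 distal and 274 non-distal, and kept ones were 912 non-distal and 79 distal. Among regions gained in both cultures, the top distal one, chr4:136125727-136126653, scored 1052 after KCl in culture 3 and 553 in culture 4 and was in neither unstimulated list. It lay in an H3K27ac peak of 1622 bp found after KCl alone. The next distal ones were chr3:50998765-51000027, with scores of 1300.1 and 510.1, and chr6:70821812-70823012, with 1916 and 471. Both hold a site of the increasing enhancer subset, and neither touched H3K27ac in silenced neurons. All 3 top distal gains thus lay in H3K27ac that was listed after KCl and not before. Of all gained distal peaks, 66.8% in culture 3 and 56.5% in culture 4 also touched an unstimulated H3K27ac peak.

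The top gained non-distal regions scored lower. At chr3:55265146-55266299 the KCl scores were 878 and 360.0, inside an H3K27ac peak that was 4380 bp wide in silenced neurons and 7182 bp wide after KCl. At chr19:4992498-4993641 they were 918 and 335, inside an H3K27ac peak of 3607 bp before and 10640 bp after KCl. At chr17:84909301-84910480 they were 500.5 and 339, in H3K27ac listed after KCl alone.

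The named gained regions with the highest scores had no H3K27ac, although over all gained peaks the distal ones had the higher median percentiles. At chr17:66310598-66311857 the score was 3100, the possible ceiling, in both KCl lists. At chr13:45718782-45719873 the KCl scores were 3183 and 1700 (culture 3, then 4), and at chr13:58755142-58756808 they were 3100 and 1593. None of the 3 touched an H3K27ac peak in either condition. All 9 named gained regions were also in both KCl sc7202 lists, both KCl FosB lists, the JunB list and both control shRNA lists, and in neither unstimulated sc7202 list. The c-Fos shRNA list of sample 5 held 8 of the 9 and that of sample 6 held 4. Of all 4170 regions gained in both cultures, these lists held 19.2% and 2.01%, and both KCl FosB lists held 32.5%. The named gained regions were thus not typical of their class in these lists.

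The best kept regions stood near the top of all 4 lists. At chr15:102235546-102236999, in non-distal H3K27ac, the unstimulated scores were 2829 and 3100 and the KCl scores 3100 and 2550, in cultures 3 and 4. The next non-distal ones were chr8:72240159-72241615, with 2383 and 2947 unstimulated and 3199 and 2494 after KCl, and chr12:72116135-72117445, with 2419 and 2757 unstimulated and 3160 and 2432 after KCl. Since scores of separate lists have no common scale, these values show rank within each list alone.

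The named distal kept regions scored lower than the named non-distal ones. Over all kept KCl peaks the median score was 186 distal and 175 non-distal in culture 3, and 114 and 132 in culture 4. The best, chr7:26052141-26053904, scored 1352 and 1740 unstimulated and 1784 and 1469 after KCl, in H3K27ac of 3509 bp before and 3685 bp after KCl. The others were chr17:17371218-17372261, at 892 and 1118 unstimulated and 1252 and 893 after KCl, and chr17:17141471-17142565, at 794 and 658 unstimulated and 1022 and 564 after KCl.

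Outside H3K27ac, chr2:98506204-98507829 scored 1984 and 2068 unstimulated and 2372 and 2387 after KCl. It was also in both unstimulated sc7202 lists and in every KCl list of sc7202, FosB, JunB and the shRNA samples that was looked up. At chr17:39979545-39986151 a region of 6607 bp held peaks of 6164 to 6574 bp in all 4 lists, the widest among the named regions. The third was chr17:86549798-86550888, with 1290.0 and 2476 unstimulated and 1972 and 1934 after KCl. No filter for regions that collect reads in any experiment was applied here. All 9 named kept regions were in both c-Fos shRNA lists and in both the KCl and the unstimulated sc7202 list of culture 3. In culture 4, 3 of the 9 were in the KCl and 2 in the unstimulated sc7202 list. A combined c-Fos site was held by 0 of 9.

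The named regions lost in both cultures ranked below the named kept regions in the unstimulated lists. Their mean percentiles there ranged from 33.5 to 73.2, so the best of them stood above the middle of their lists. The best, chr4:111538990-111539953, lay outside H3K27ac and scored 276 and 138 in the unstimulated lists of cultures 3 and 4. It was followed by chr8:51540441-51541134, with 117 and 170, and chrX:76014561-76015309, with 164 and 102. The best distal one, chr2:179530074-179530753, scored 151 and 89.0, and the best non-distal one, chr9:108480629-108481444, scored 105 and 80.3. The other 4 named lost regions scored between 65.5 and 95.03. Of the 9, 0 were in a KCl FosB list and 0 held a combined c-Fos site, 3 were in the JunB list made after KCl, and 1 was in a KCl sc7202 list. The sc52 lists with control shRNA, also made after KCl, held 5 of the 9 in sample 5 and 4 in sample 6. The c-Fos shRNA lists held 4 of the 9 in either sample. Of all 80 regions lost in both cultures, 37.5% were in the JunB list, 3.75% in both KCl sc7202 lists and 10% in both control shRNA lists. The c-Fos shRNA lists of samples 5 and 6, each counted alone, held 42.5% and 13.75% of them, a measure unlike presence in both control lists.

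Gained peaks were spaced like the rest of their list. The median distance to the next peak of the same KCl list was 24.3 kb for gained and 23.04 kb for kept peaks in culture 3, and 92.9 and 86.8 kb in culture 4. Gained peaks outside H3K27ac lay a median of 27.8 kb from the nearest H3K27ac peak in culture 3 and 38.7 kb in culture 4, and 15.4% and 11.02% of them lay within 5 kb of one.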

How the data were processed

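ChIP-seq peak lists of 4 c-Fos sc52 libraries were analysed, with the deposited AP-1, H3K27ac and enhancer lists as readouts. Reads were aligned with BWA to mm9, per the submitters' processing notes; no version is given there. The deposited score in column 5 is the authors' peak score, named MACS in the peak names, with a lowest value of 50. Other deposited lists hold positions of sites alone. Replicates were not pooled for sc52, per the labels, and libraries of biological samples 1 and 2 were merged for H3K27ac.

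Overlap of at least 1 bp, Wilson intervals at 95% and exact permutation tests were computed with Python 3.11.15, numpy 2.4.6 and scipy 1.17.1, and the overlap code was tested on simulated data. The lists hold no read counts, so depth is unknown. A region touching both kinds of H3K27ac counts as non-distal. The 27 named regions are the 3 best by mean score percentile per class and context, with chromosome 18 left out. Pairing within a culture follows from the labels, which give the biological sample of each library. The classes and regions were chosen with earlier results of these data known. Alternatives changed the score threshold, overlap rule, list length, partner list, context rule, merging and chromosomes. FosB shRNA lists were not used, and no gene names or sequences are given because no mm9 annotation was at hand.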

Additional observations from a re-analysis of the deposited data

Results flagged for a closer look

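The KCl FosB list of the same culture held fewer gained than kept sc52 peaks in culture 3, a difference of -20.5 percentage points, and more gained than kept peaks in culture 4, a difference of 25.9 points. The difference between the cultures was not tested.

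The sc52 lists made with control shRNA also went opposite ways between biological samples 5 and 6. In sample 5, gained minus kept sc52 peaks gave -18.3 points for culture 3 and -15.5 for culture 4. In sample 6 the same comparison gave 8.04 points for culture 3 and 13.8 for culture 4. The difference between samples 5 and 6 was not tested.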

How the results depend on the processing

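Of the 10 results, 8 could change sign, and their 93 alternative values kept the reported direction. The kept and gained shares have no sign, and the kept share went from most to a minority of peaks with shortened KCl lists. Over all 10 results, 79 of the 94 alternative values that did not leave out a culture moved by less than the spread between cultures. With scores of at least 100, the kept share was 79.0%, the gained share 76.2% and the kept minus gained percentile difference 38.2 points. With KCl lists cut to the unstimulated length, the kept share was 37.3%, the gained share 62.9%, the distal difference 27.4 points, the kept minus lost non-distal difference 17.2 points and the percentile difference 29.4 points. With the partner list of the other culture, the kept share was 61.5% and the percentile difference 35.8 points, and with partners from both cultures the values were 82.5% and 31.5 points, with a kept minus lost non-distal difference of 41.1 points. In the better-scoring part of the KCl lists, chosen after the data were seen, the gained share was 75.8% and the percentile difference 15.8 points. The cut lists and the score minimum hold fewer peaks by construction, and the cause of the other shifts was not tested.

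With culture 3 or culture 4 alone, the log2 list length difference ranged from 1.85 to 2.61, the kept share from 67.2% to 76.7% and the gained share from 81.3% to 87.4%. The distal difference ranged from 10.8 to 21.9 points, the non-distal difference from -66.8 to -51.4, the kept minus lost difference from 21.7 to 35.4, the width difference from 123 to 197 bp and the percentile difference from 34.5 to 35.2 points. The sc7202 difference ranged from 22.5 to 65.9 points and the c-Fos shRNA difference from -79.0 to -59.2. The culture as a block gave a paired log2 difference of 2.23 (exact sign-flip p = 0.5) and changed no call. Depth, unknown here, limits every list length and every statement that a peak was absent.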
